A study of Mus musculus with 19 samples.

Results

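The comparison described here is that of tongue epithelium expressing the human papillomavirus 16 E6 and E7 oncogenes, without the YAP1 transgene, with control epithelium. The members are all mice of the E group and all mice of the N group, which is 10 of the 19 mice of the bulk RNA sequencing (5 E and 5 N), and 21385 of the 24689 genes of the table. The 5 E mice carried Krt14-CreERT, LSL-rtTA and tetON_E6-E7. Of the 5 N mice, mice 1 to 3 carried Krt14-CreERT and LSL-rtTA, mouse 4 carried LSL-rtTA alone, and mouse 5 carried Krt14-CreERT, tetON_E6-E7 and tetON_YAP1S127A but no rtTA. The 3 Y mice carried Krt14-CreERT, LSL-rtTA and tetON_YAP1S127A, and the 6 EY mice carried Krt14-CreERT, LSL-rtTA, tetON_E6-E7 and tetON_YAP1S127A. Tamoxifen was injected into the tongue and doxycycline was given in the diet, to all groups, and the epithelium was taken on day 15 after induction. The driver acts in the Krt14-positive basal layer, whereas the RNA comes from the whole dissected epithelium. Cells without the transgene may thus be part of the E libraries, and their share was not measured. RNA of the E6-E7 transgene itself was not analysed here.

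E6 directs the p53 protein to degradation through the ubiquitin ligase encoded by Ube3a, and E7 binds the retinoblastoma protein and its relatives, which otherwise hold the E2F factors inactive. E2F factors drive genes of DNA replication, and the cell cycle genes of mitosis carry a further promoter element read by complexes with MYBL2 and FOXM1. Both act on proteins, so the RNA of the direct partners need not differ between groups.

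Values are TPM per mouse. Fold changes are differences of means of log2(TPM + 0.1), a scale that can understate the change of genes near 0 and can overstate it where 1 read is worth more than 0.1 TPM. Adjusted p are from limma with Benjamini-Hochberg adjustment over the 21385 genes tested. All 19 mice were in 1 fit, so the Y and EY mice contribute to the spread behind each E against N value. Genes with adjusted p under 0.01 whose log2 fold change is above 1 or under -1 are called DEGs, and "rose" and "fell" are used only for DEGs. Reads per mouse ran from 8798700 to 10654405 in N and from 8285602 to 9482472 in E.

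The tissue label was checked against marker genes. Epithelial keratins were abundant in every mouse. Krt13, the keratin of the suprabasal lining epithelium, ran from 46629 to 88788 TPM in N and from 42349 to 78068 in E. Summed skeletal muscle markers, led by Acta1, were at 76.3, 292, 22.4, 53.5 and 69.4 TPM in N mice 1 to 5 and at 52.5, 39.0, 48.0, 28.8 and 166 in E mice 1 to 5. Summed immune markers, led by Lyz2, were at 770.3, 331, 155, 119 and 126 TPM in N and at 349, 211, 247, 57.1 and 557 in E. Fibroblast markers, led by Dcn, summed to 293, 204, 86.3, 73.9 and 61.5 TPM in N and to 93.2, 82.5, 65.7, 57.2 and 104 in E. The values of the E and N mice overlapped in each of these sums. Of the 10 marker lists, none held a DEG of E against N by limma. At an unadjusted p below 0.05 there was 1 of 6 epithelial, 1 of 14 immune, 0 of 9 muscle and 1 of 2 lingual gland markers. By voom the single marker called was Epcam (a cell adhesion molecule of epithelia). Epcam stood at 13.4, 15.9, 20.1, 7.44 and 9.04 TPM in N mice 1 to 5 and at 20.2, 29.8, 32.5, 39.8 and 30.8 in E mice 1 to 5 (log2 fold change 1.27, adjusted p = 0.0127). Epcam, chosen after its values were seen, passed both thresholds without E mouse 1, without N mouse 3, and without N mice 2 and 3 together (1.62, adjusted p = 0.00393). Median log2 fold changes of the other marker lists were -0.56 for muscle, -0.43 for fibroblasts, -0.27 for endothelium, -0.86 for Schwann cells, 0.19 for melanocytes, -0.12 for taste cells, -1.22 for lingual glands and 0.19 for immune cells. Without N mice 2 and 3 they were -0.23 for lingual glands, 0.12 for taste cells, -0.21 for fibroblasts, -0.57 for Schwann cells and 0.34 for melanocytes, and after median-of-ratios scaling 0.09 for immune cells. In bulk RNA, a change in the number of cells of a type and a change in the RNA per cell cannot be told apart.

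N mice 2 and 3 stand apart from the other 8 mice in sex-linked and gland genes. Xist, the RNA of the inactive X chromosome, was at 0.0996, 375, 383, 0.0860 and 0 TPM in N mice 1 to 5 and at 0, 0.113, 0.0288, 0.0584 and 0 in E mice 1 to 5. Ddx3y, a gene of the Y chromosome, was at 16.7, 0, 0, 15.1 and 21 TPM in N and at 13.7, 19.4, 17.9, 20.5 and 20.1 in E. Dcpp1, a secretory protein of lingual glands, was at 0, 42.1, 74.4, 0 and 0 TPM in N and at 0 in all E mice. The sex-linked list had a median log2 fold change of 2.21, which was -0.05 without N mice 2 and 3, and no DEG. All 5 E mice thus have Y-linked RNA while 2 of 5 N mice do not, and the group comparison was repeated without these N mice. N mouse 5, which carries the E6-E7 allele without rtTA, lay within the range of the other N mice for Stag3 (0.190 TPM) and Zcwpw1 (0.207 TPM), both DEGs higher in E, and was the highest N mouse for Smc1b (0.0495 TPM) and Meiosin (0.115 TPM).

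Of the 21385 genes tested, 265 (1.24%) were DEGs higher in E than in N and 11 (0.0514%) were DEGs lower in E, so 96.0% of the 276 DEGs were higher. The corresponding shares in the other comparisons made here were 1.12% higher and 1.03% lower in EY than in Y, 0.874% higher and 1.68% lower in E than in Y, and 0.187% for the interaction of E6-E7 with YAP. In 1031 genes (4.82%) the 5 E and 5 N mice did not overlap, 888 of them with E above N. Of the DEGs, 258 of the 265 higher and 7 of the 11 lower were without overlap. Over all genes tested, the log2 fold change was above 0 in 58.4% and had a median of 0.07, which median-of-ratios scaling moves by 0.102 to -0.03, and the share of DEGs that were higher was then 95.3%. At an unadjusted p below 0.05 there were 3328 genes. The DEGs higher in E had a median of 2.45 TPM in the N mean and of 7.54 in the E mean, beside a median of 2.98 TPM in the N mean of all genes tested. Log2 fold changes above 2 were found in 48 of them and above 4 in 5. These are fitted values: of the 5, Ighv1-62 had 0 reads in N and a log2 bound of 2.81 (floor of 3 reads over the group, 95%, counting error only). Another, 4930542C12Rik, had 1 read in N. Leaving out N mice 2 and 3 gave 252 DEGs and kept 215 of the 265, and 195 of the 265 were kept without each mouse in turn. With only the E and N mice in the fit there were 150 DEGs. Of the 265, 17 had fewer than 3 N mice at 0.1 TPM or more and so passed the filter through their E mice, as did 2164 of all genes tested.

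These genes were called from the same mice, so that E lies above N in them is given by the choice, and values per mouse show only the spread. Their median distance from the N mean on the log2 scale was 1.11, 1.43, 1.55, 1.73 and 1.61 in E mice 1 to 5 and 0.03, 0.18, 0.00, -0.12 and -0.01 in N mice 1 to 5. E mouse 1 was the lowest of the 5 in this measure and N mouse 2 the highest of its group. Over all genes tested the same measure was 0.01, 0.18, 0.08, -0.13 and -0.10 in N mice 1 to 5. It was 0.03, 0.11, 0.09, 0.17 and 0.09 in E mice 1 to 5. The differences among the N mice are thus about those of all genes. Of the 265, 86 belong to the 16 pathway lists described next, which have 440 members among the genes tested, and 179 belong to no list. The 86 became 57 with only the E and N mice in the fit. No member of a pathway list was a DEG lower in E.

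**Figure D1:**
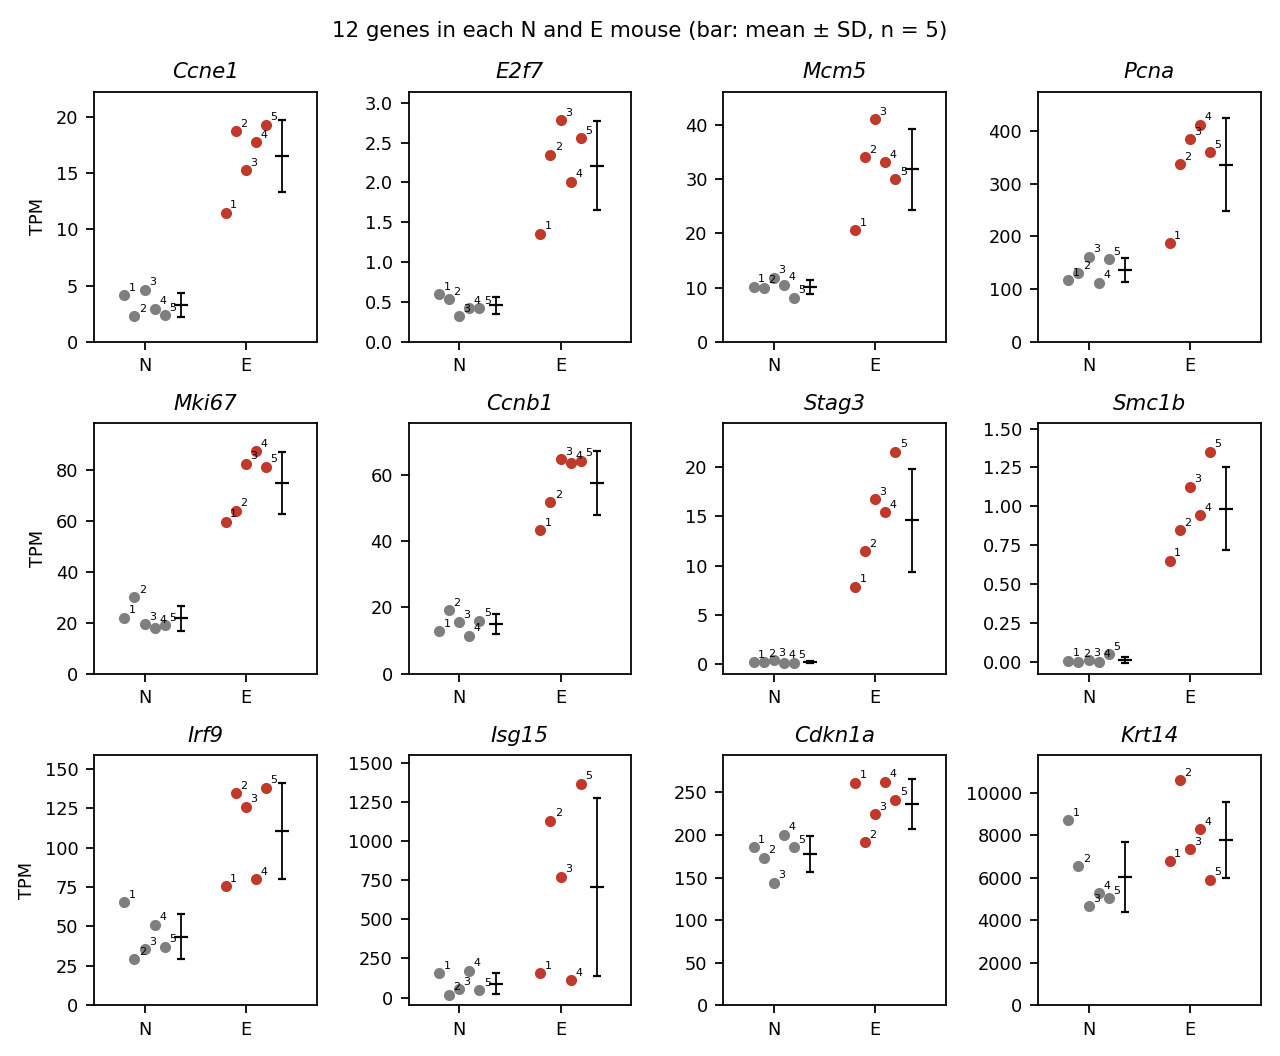
TPM of 12 genes in each of the 5 N and 5 E mice, with the mouse number beside each point and a bar for the mean ± SD (n = 5 per group). Ccne1, E2f7, Mcm5, Mki67, Ccnb1, Stag3 and Smc1b do not overlap between the groups, whereas Isg15 and Krt14 do.

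The pocket proteins, which E7 binds, and the E2F factors that they hold come first. Of 13 tested, 3 were DEGs higher in E (E2f7, E2f8 and E2f2), 13 had a positive log2 fold change, and the median was 0.53, beside 0.07 for all genes tested. The count was 1 with the 3 N mice of genotype Krt14-CreERT/LSL-rtTA alone, 1 with only the E and N mice in the fit, and 6 with no limit on the fold change. E2f7, an atypical E2F that represses, stood at 0.598, 0.531, 0.320, 0.422 and 0.423 TPM in N mice 1 to 5 and at 1.36, 2.35, 2.78, 2.01 and 2.56 in E mice 1 to 5. It rose from 0.459 ± 0.108 to 2.21 ± 0.555 TPM (mean ± SD; log2 fold change 2.03, adjusted p = 1.58e-05), with every E mouse above every N mouse. E2f8, the other atypical E2F, rose from 4.20 ± 1.26 to 10.1 ± 2.06 TPM (log2 fold change 1.27, adjusted p = 0.00205), and was not called with a replicate block, with the 3 N mice of genotype Krt14-CreERT/LSL-rtTA alone or with only the E and N mice in the fit. E2f2, an activator, rose from 3.04 ± 0.573 to 6.30 ± 1.2 TPM (log2 fold change 1.03, adjusted p = 0.00172) and was not called without E mouse 4, N mouse 4 or N mouse 5, with log2 fold changes of 0.93 to 0.96. It was not called after median-of-ratios scaling (0.92) or quantile normalization (0.94), with a pseudocount of 1 TPM, with the 3 N mice of genotype Krt14-CreERT/LSL-rtTA alone or with only the E and N mice in the fit. E2f1, also an activator, had means of 5.48 and 10.3 TPM in N and E (log2 fold change 0.90, adjusted p = 0.00763), short of the fold threshold, which it passed without E mouse 1 or N mouse 3 (1.02 to 1.06). Of the pocket proteins, Rbl1 (p107) had means of 4.53 and 8.10 TPM (log2 fold change 0.82, adjusted p = 4.97e-04). Rb1 itself had means of 3.65 and 4.23 TPM (0.20, adjusted p = 0.567). Rbl2 (p130) had means of 3.56 and 3.80 TPM (0.10, adjusted p = 0.809), with the sign turned by median-of-ratios scaling (-0.01).

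Cyclins, kinases and kinase inhibitors of G1 contributed 8 DEGs higher in E among 19 tested, with a median log2 fold change of 0.92 and 16 values above 0. Ccne1, the cyclin E1 partner of CDK2, stood at 4.12, 2.27, 4.62, 2.94 and 2.38 TPM in N mice 1 to 5 and at 11.5, 18.7, 15.3, 17.7 and 19.3 in E mice 1 to 5. It rose 5.05-fold in the mean (log2 fold change 2.33, SE 0.22, adjusted p = 5.33e-06), and the lowest E mouse was above the highest N mouse. Ccne2, cyclin E2, stood at 6.87, 10.3, 8.86, 7.40 and 8.38 TPM in N and at 12.7, 29.8, 30.3, 31.0 and 36.0 in E (1.66, adjusted p = 2.60e-04). Its E mice were all above its N mice, with E mouse 1 far below the other 4, and it was not called with only the E and N mice in the fit. Ccna2, the cyclin of S phase and G2, rose from 23.0 ± 5.65 to 70.2 ± 13.1 TPM (1.62, adjusted p = 1.26e-05). Cks1b, a subunit of the kinase complexes, rose from 21.3 ± 3.61 to 52.1 ± 6.20 TPM (1.29, adjusted p = 3.10e-05). Cyclin D1 lay in the other direction: Ccnd1 stood at 77.6, 106, 113, 110.5 and 75.1 TPM in N and at 59.9, 62.4, 47.6, 76.1 and 31.4 in E (-0.83, adjusted p = 0.0337, not a DEG), with 1 E mouse above the lowest N mouse.

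Among the inhibitors of cyclin-dependent kinases, 2 of the INK4 family rose. Cdkn2d (p19) stood at 14.4, 14.9, 15.2, 13.6 and 13.3 TPM in N mice 1 to 5 and at 49.3, 41.5, 42.5, 64.9 and 31.4 in E mice 1 to 5 (log2 fold change 1.64, adjusted p = 7.04e-06). Cdkn2c (p18) rose from 16.6 ± 3.14 to 37.5 ± 6.78 TPM (1.17, adjusted p = 1.44e-04). Neither gene overlapped between the groups. Cdkn1c (p57), chosen after its values were seen as the largest fold change of the G1 list, stood at 18.7, 12.3, 9.20, 6.53 and 4.50 TPM in N and at 28.5, 39.4, 51.6, 66.3 and 64.5 in E (2.38, adjusted p = 3.16e-04). It was without overlap and lost the call only with the E and N mice alone in the fit (adjusted p = 0.0116). Cdkn2a, the locus of p16 and p19ARF, was near 0 in N, at 0.169, 0, 0.0317, 0 and 0.0275 TPM, and at 0.434, 0.225, 0.817, 0.762 and 0.249 in E (2.01, adjusted p = 0.0293, not a DEG). Its E mice were all above its N mice, on 8 reads over the N group and 79 over the E group. The isoforms of Cdkn2a cannot be told apart in gene-level values. Cdkn1a (p21), which belongs to the p53 targets as well, stood at 186, 173, 144, 200.1 and 185 TPM in N and at 261, 191, 224, 263 and 241 in E (0.41, adjusted p = 0.0977, not a DEG), and E mouse 2 lay inside the N range.

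The p53 list, which is p53 with its target genes, had 2 DEGs among 29 tested, both higher in E, a median log2 fold change of 0.24 (0.13 after median-of-ratios scaling) and 23 values above 0. Trp53 RNA stood at 27.4, 24.2, 22.4, 19.2 and 15 TPM in N mice 1 to 5 and at 24.5, 25.0, 25.9, 23.9 and 18.5 in E mice 1 to 5 (log2 fold change 0.14, adjusted p = 0.733), the sign turning to -0.07 with the 3 N mice of genotype Krt14-CreERT/LSL-rtTA alone. Mdm2, the p53 ligase and target, stood at 16, 21.4, 16.2, 16.5 and 17.3 TPM in N and at 16.3, 22.1, 22.2, 22.4 and 22.6 in E (0.27, adjusted p = 0.281). The groups overlapped in both. Other targets were not DEGs either. Ccng1 (cyclin G1) had means of 41.5 and 48.2 TPM (0.21, adjusted p = 0.657). Bbc3, which encodes the apoptosis factor PUMA, had means of 2.32 and 3.59 TPM (0.61, adjusted p = 0.248). The DEGs were Pmaip1 and Eda2r. Pmaip1, which encodes the apoptosis factor NOXA, stood at 6.00, 3.58, 3.37, 2.87 and 3.00 TPM in N and at 7.63, 17.0, 9.66, 9.70 and 12.7 in E (1.56, adjusted p = 3.88e-04), without overlap. Eda2r, a receptor of the TNF family, rose from 0.601 ± 0.111 to 1.45 ± 0.341 TPM (1.13, adjusted p = 0.00252). Without E mouse 2, 3 or 5 its adjusted p was 0.0103 to 0.0108 and the list held 1 DEG, as it did without N mice 2 and 3, with the 3 N mice of genotype Krt14-CreERT/LSL-rtTA alone and with a pseudocount of 1 TPM. With only the E and N mice in the fit it held none.

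Genes for protein partners of E6 and E7 outside these lists had no DEG among 17 tested by limma and none by voom, with 3 at an unadjusted p below 0.05 and a median log2 fold change of 0.13, which was 0.02 after median-of-ratios scaling and 0.27 without N mice 2 and 3. Ube3a, the ligase used by E6, stood at 6.42, 8.80, 9.64, 6.98 and 7.42 TPM in N mice 1 to 5 and at 4.61, 6.73, 6.50, 6.02 and 6.18 in E mice 1 to 5 (log2 fold change -0.38, adjusted p = 0.22). The groups overlapped in Ube3a. Protein levels were not analysed here.

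DNA replication was among the lists with the most DEGs: 18 of 42 tested were DEGs higher in E, all 42 had a positive log2 fold change, and the median was 0.95. The count ran from 15 to 28 with 1 mouse left out, with 28 without E mouse 1, and it was 13 without N mice 2 and 3. It was 12 with the 3 N mice of genotype Krt14-CreERT/LSL-rtTA alone, 11 with only the E and N mice in the fit, and 30 with no limit on the fold change. At an unadjusted p below 0.05 there were 40 of the 42, and in 33 the E and N mice did not overlap. Summed over the list, RNA stood at 480.0, 492, 544, 464 and 483 TPM in N mice 1 to 5 and at 753, 1120.2, 1223, 1399 and 1215 in E mice 1 to 5, led by Pcna. Every E sum was above every N sum, and E mouse 1 was nearest to N.

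Of the helicase that unwinds the origin, Mcm5 stood at 10.1, 9.94, 11.8, 10.5 and 8.14 TPM in N mice 1 to 5 and at 20.6, 34.1, 41.0, 33.1 and 30.0 in E mice 1 to 5 (log2 fold change 1.62, adjusted p = 1.83e-05). Mcm6, of the same ring, rose from 12.9 ± 0.298 to 31.1 ± 6.17 TPM (1.24, adjusted p = 1.83e-05). Both were without overlap. Mcm2 had means of 10.3 and 20.3 TPM (0.96, adjusted p = 1.00e-03), under the fold threshold, and passed it without E mouse 1, E mouse 5 or N mouse 3 (1.01 to 1.07). Cdc6, the loader of that helicase, had means of 2.73 and 5.29 TPM (0.86, adjusted p = 0.094, not a DEG). Pcna, the sliding clamp, stood at 116, 130.4, 161, 112 and 157 TPM in N and at 187, 337, 385, 412 and 359.7 in E (1.28, adjusted p = 4.65e-04). Its E mice all lay above its N mice, and it was not called with only the E and N mice in the fit. Clspn, a fork and checkpoint protein, rose from 1.29 ± 0.344 to 4.52 ± 0.972 TPM (1.74, adjusted p = 1.83e-05). For nucleotide supply, Rrm2, the small subunit of ribonucleotide reductase, stood at 25.1, 16.8, 19.5, 25.5 and 18.6 TPM in N and at 64.9, 85.5, 93.6, 153 and 128 in E (2.27, adjusted p = 1.29e-04), without overlap. Tyms, thymidylate synthase, rose from 6.39 ± 1.34 to 18 ± 4.29 TPM (1.47, adjusted p = 3.53e-05).

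Mitosis was the list with the highest share of DEGs. Of 40 tested, 37 were DEGs higher in E, all 40 had a positive log2 fold change, the median was 1.61, and the E and N mice did not overlap in 38. The count ran from 37 to 39 with 1 mouse left out and was 38 without N mice 2 and 3. Summed over the list, RNA stood at 212, 275, 194, 181 and 210.5 TPM in N mice 1 to 5 and at 597, 637, 769, 835 and 746 in E mice 1 to 5, led by Cdc20. The lowest E sum was above the highest N sum.

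Mki67, the proliferation antigen of dividing chromosomes, stood at 22.0, 30.0, 19.4, 18.1 and 18.9 TPM in N mice 1 to 5 and at 59.7, 64.2, 82.6, 87.6 and 81.4 in E mice 1 to 5 (log2 fold change 1.80, SE 0.15, adjusted p = 1.47e-06). Ccnb1, the cyclin of mitotic entry, stood at 12.7, 19, 15.5, 11.4 and 16 TPM in N and at 43.2, 51.7, 64.5, 63.5 and 64.2 in E (1.94, adjusted p = 3.55e-07). Top2a, the topoisomerase that untangles sister chromatids, stood at 13.9, 20.8, 15.6, 14.3 and 16.2 TPM in N and at 36.7, 46.0, 52.5, 63.6 and 48.7 in E (1.60, adjusted p = 1.34e-06). In all 3 genes every E mouse was above every N mouse. Cdk1, the kinase of mitotic entry, rose from 4.66 ± 0.624 to 20.6 ± 3.58 TPM (2.11, adjusted p = 9.72e-08). Cdc20, which activates the anaphase-promoting complex, stood at 22.4, 24.5, 15.2, 18.6 and 18.4 TPM in N and at 78.0, 73.9, 96.7, 96.9 and 86.2 in E (2.13, adjusted p = 1.03e-07), without overlap. Kif2c, a kinesin that shortens microtubules at centromeres, rose from 1.46 ± 0.262 to 6.43 ± 0.816 TPM (2.07, adjusted p = 1.03e-07). Racgap1, of the cytokinesis spindle, rose from 3.49 ± 0.222 to 11 ± 1.55 TPM (1.62, adjusted p = 9.15e-08). Birc5, which encodes survivin, rose from 9.08 ± 1.96 to 34.0 ± 3.43 TPM (1.91, adjusted p = 6.17e-06).

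FOXM1 and MYBL2 are members of the complexes that act at the promoters of mitotic genes. Foxm1 rose from 3.2 ± 0.607 to 8.80 ± 1.69 TPM (log2 fold change 1.43, adjusted p = 1.26e-05). Mybl2 stood at 1.54, 1.66, 1.68, 2.05 and 1.02 TPM in N mice 1 to 5 and at 1.90, 2.79, 3.52, 4.15 and 2.93 in E mice 1 to 5 (0.89, adjusted p = 0.0191, not a DEG). Only E mouse 1 lay inside the N range of Mybl2, which passed both thresholds without that mouse (1.04, adjusted p = 0.00331, over a range of 0.00331 to 0.105 in all alternatives). Kifc1, a kinesin of the spindle pole outside the list, stood at 1.63, 1.76, 1.83, 1.41 and 1.18 TPM in N and at 7.45, 6.52, 7.96, 10.5 and 7.52 in E (2.28, adjusted p = 2.74e-07), without overlap. Reads of Kifc1 may be shared with its near-identical copy Kifc5b (1.64, adjusted p = 4.29e-05), which was chosen after its values were seen, so the level of each is uncertain.

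Promoter sequences are shown for the 4 fixed genes with the smallest adjusted p, so that the elements of cell cycle promoters can be seen beside their values. They are the 250 bases before the transcription start in RefSeq on GRCm38.p6: Ccnb1 at chr13:100786487-100786736 on the minus strand, Top2a at chr11:99024190-99024439 on the minus strand, Mki67 at chr7:135716380-135716629 on the minus strand, and Stag3, given with the meiotic genes. Capitals mark exact words of the cell cycle homology element, TTTGAA or TTCGAA, or TTCAAA and TTCGAA on the other strand. Other forms of the element were not searched for.
Ccnb1: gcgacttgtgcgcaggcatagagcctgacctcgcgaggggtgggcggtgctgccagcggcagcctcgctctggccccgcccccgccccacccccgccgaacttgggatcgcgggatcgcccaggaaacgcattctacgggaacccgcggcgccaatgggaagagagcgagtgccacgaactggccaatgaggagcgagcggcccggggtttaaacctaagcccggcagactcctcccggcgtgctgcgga
Top2a: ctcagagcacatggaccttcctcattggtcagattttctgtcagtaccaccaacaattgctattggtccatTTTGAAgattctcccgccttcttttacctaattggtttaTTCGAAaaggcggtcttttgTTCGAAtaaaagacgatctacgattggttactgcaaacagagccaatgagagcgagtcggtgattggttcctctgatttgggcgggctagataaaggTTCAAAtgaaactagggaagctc
Mki67: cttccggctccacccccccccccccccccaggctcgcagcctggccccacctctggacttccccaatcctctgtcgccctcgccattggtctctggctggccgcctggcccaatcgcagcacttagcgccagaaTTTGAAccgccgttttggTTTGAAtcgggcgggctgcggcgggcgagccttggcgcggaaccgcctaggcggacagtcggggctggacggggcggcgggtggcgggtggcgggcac
Top2a has 4 such words, 179, 140, 120 and 23 bases before the start, Mki67 has 2, at 116 and 98 bases, and Ccnb1 has none. The lack of these exact words in Ccnb1 does not show that the element is absent. No E2F word (TTTCCCGC, TTTCGCGC, TTTGCCGC or TTTGGCGC, or GCGGGAAA, GCGCGAAA, GCGGCAAA or GCGCCAAA on the other strand) is in any of the 3. Of all 27025 promoters in the table, 19.6% have the cell cycle word and 2.16% an E2F word, beside 15.4% and 3.48% of those of the 12503 genes tested that matched by name. Of the 265 DEGs higher in E, 205 matched, 60 (29.3%) with the cell cycle word and 16 (7.80%) with an E2F word. Among 35 mitosis genes, 12 (34.3%) have the cell cycle word and 1 an E2F word. For 34 DNA replication genes the counts are 6 (17.6%) and 8 (23.5%), for 31 genes of meiosis and the germline 3 (9.68%) and 4 (12.9%), and for 31 interferon-stimulated genes 5 (16.1%) and 3 (9.68%). Of the 38 meiosis and germline genes listed, 17 were tested, so the 31 promoters of that list include genes not tested. These shares were not tested, and a match is a description of the sequence and shows no binding.

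DNA damage signaling and repair had 8 DEGs higher in E among 30 tested, a median log2 fold change of 0.83 and 29 values above 0. The count ran from 6 to 11 with 1 mouse left out and was 6 without N mice 2 and 3. It was 1 with only the E and N mice in the fit, 2 with a pseudocount of 1 TPM, and 13 with no limit on the fold change. Polq, the polymerase of microhomology end joining, rose from 0.215 ± 0.0689 to 0.774 ± 0.205 TPM (log2 fold change 1.47, adjusted p = 2.83e-04). Neil3, a glycosylase for crosslinks, rose from 0.623 ± 0.0499 to 1.85 ± 0.641 TPM (1.37, adjusted p = 5.67e-04). Both lost the call with only the E and N mice in the fit and with a pseudocount of 1 TPM. Brca1 stood at 0.866, 1.04, 1.28, 1.15 and 0.807 TPM in N and at 1.07, 2.42, 2.38, 3.42 and 2.61 in E (1.07, adjusted p = 0.0101, not a DEG). It passed without E mouse 1, the only E mouse inside its N range (1.32, adjusted p = 5.23e-05, over a range of 5.23e-05 to 0.102 in all alternatives), and it passed by voom. Fancd2, of the crosslink repair pathway, had means of 0.422 and 0.790 TPM (0.73, adjusted p = 0.0836, not a DEG).

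Among the replication-dependent histone genes, 1 of 52 tested was a DEG, with a median log2 fold change of 0.74 and 34 values above 0, beside 58.4% of all genes tested. The summed RNA of the list had a lower mean in E (455 TPM) than in N (502), and the groups overlapped. The DEG was H2bc22, at 0, 0, 0, 0.281 and 0 TPM in N mice 1 to 5 and at 0.938, 2.22, 1.88, 2.29 and 0.716 in E mice 1 to 5 (log2 fold change 3.58, adjusted p = 0.00378). Its N group had 1 read and its E group 22, a ratio of 24.4 with a counting interval of 3.95 to 1009 (exact, 95%, counting error only). Without E mouse 2, 3 or 4, or N mouse 1, 2, 3 or 5, H2bc22 had an adjusted p of 0.0106 to 0.0136 and the list held no DEG, as by voom, with a replicate block and with a pseudocount of 1 TPM. Histone genes share reads with near-identical copies and most of their RNA has no poly(A) tail, so their levels here are uncertain. For PRC2 and DNA methylation there was no DEG among 14 tested by limma and none by voom, with 9 at an unadjusted p below 0.05 and a median log2 fold change of 0.50. Ezh2, the methyltransferase of PRC2, had means of 3.29 and 5.26 TPM (0.67, adjusted p = 0.00697). Dnmt1, the maintenance DNA methyltransferase, had means of 6.21 and 11.2 TPM (0.84, adjusted p = 0.00806). Uhrf1, its recruiting factor, had means of 9.25 and 16.9 TPM (0.86, adjusted p = 0.00551). Hells, a chromatin remodeler of methylated DNA, had means of 6.44 and 9.24 TPM (0.52, adjusted p = 0.132). All 4 stayed under the fold threshold.

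Genes of meiosis and the germline gave some of the largest fold changes of the comparison. Of 38 listed genes 17 passed the filter, and 5 of these were DEGs higher in E (Stag3, Zcwpw1, Smc1b, Syce2 and Tdrd1), with a median log2 fold change of 0.35 (0.60 without N mice 2 and 3) and 11 values above 0, beside 58.4% of all genes tested. Of the 17, 4 had fewer than 3 N mice at 0.1 TPM or more and passed through their E mice, and 1 of these, Smc1b, is a DEG. The count was 5 or 6 with 1 mouse left out, 5 without N mice 2 and 3, and 3 with only the E and N mice in the fit. Summed over the list, RNA stood at 11.7, 32.4, 17.4, 11.6 and 17.6 TPM in N mice 1 to 5 and at 32.4, 43.0, 50.1, 52.5 and 61.9 in E mice 1 to 5, led by Stag3. The sums of E mouse 1 and N mouse 2 met, whereas each of the 5 DEGs was without overlap.

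Stag3, the cohesin subunit of meiotic chromosome axes, stood at 0.230, 0.273, 0.438, 0.168 and 0.190 TPM in N mice 1 to 5 and at 7.85, 11.5, 16.7, 15.4 and 21.5 in E mice 1 to 5. It rose 56.1-fold in the mean (log2 fold change 5.32, SE 0.28, adjusted p = 2.12e-08), on 72 reads over the N group and 3689 over the E group. Its promoter is shown because Stag3 has the smallest adjusted p of the fixed genes; it lies at chr5:138280259-138280508 on the plus strand of GRCm38.p6.
Stag3: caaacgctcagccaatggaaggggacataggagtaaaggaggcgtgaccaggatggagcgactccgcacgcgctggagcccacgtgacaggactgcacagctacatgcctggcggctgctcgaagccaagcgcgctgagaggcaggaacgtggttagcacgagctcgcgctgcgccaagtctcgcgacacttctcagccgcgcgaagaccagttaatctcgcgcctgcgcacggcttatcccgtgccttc
It has neither an E2F word nor a cell cycle word, so no base is in capitals. Gpc2, whose gene adjoins Stag3 and which was chosen after its values were seen, was not a DEG (1.02, adjusted p = 0.134). Smc1b, the meiotic partner of Stag3 in the cohesin ring, stood at 0.00847, 0, 0.00951, 0 and 0.0495 TPM in N and at 0.651, 0.847, 1.13, 0.944 and 1.35 in E (3.24, adjusted p = 8.00e-06), on 8 and 523 reads, and under the fold threshold with a pseudocount of 1 TPM (0.96). Zcwpw1, a reader of histone marks at meiotic recombination hotspots, stood at 0.344, 0.252, 0.257, 0.0848 and 0.207 TPM in N and at 6.35, 10.01, 11.7, 11.1 and 13.1 in E (5.02, adjusted p = 8.27e-08). No E mouse of these 3 genes came near the N mice. Syce2, of the central element of the synaptonemal complex, stood at 1.34, 2.58, 1.87, 1.62 and 2.24 TPM in N and at 2.86, 7.08, 5.57, 6.39 and 8.48 in E (1.55, adjusted p = 7.45e-04) and was not called with only the E and N mice in the fit. Tdrd1, of the piRNA pathway and chosen after its values were seen, stood at 0.898, 0.776, 0.555, 0.180 and 0.165 TPM in N and at 1.51, 2.75, 3.73, 3.57 and 4.95 in E (2.58, adjusted p = 0.00188). Tdrd1 was not called with a replicate block, with the 3 N mice of genotype Krt14-CreERT/LSL-rtTA alone, with only the E and N mice in the fit or with a pseudocount of 0.01 TPM. Other axis and recombination genes, chosen after their values were seen, were not DEGs: the log2 fold change was -0.31 for Sycp3, -0.30 for Spo11 (0.01 without N mice 2 and 3) and -1.42 for Rec8, where N mouse 2 had 14.9 TPM.

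Among the 15 largest increases without overlap of the E and N mice were 3 genes outside that list with a known role in the germline, a grouping made after their values were seen, and germline genes beyond the list were not counted. Meiosin, the factor that starts meiosis together with STRA8, was at 0, 0, 0, 0.0509 and 0.115 TPM in N mice 1 to 5 and at 3.40, 5.97, 9.25, 14.7 and 14 in E mice 1 to 5 (log2 fold change 6.05, adjusted p = 9.15e-08), on 6 reads over the N group and 1426 over the E group. Rbm46, a germline RNA-binding protein, was at 0 in all N mice and at 0.460, 0.726, 0.420, 0.954 and 0.687 TPM in E (2.86, adjusted p = 2.13e-04), at least 74.4-fold on 0 and 201 reads with a floor of 3 reads, and under the fold threshold with a pseudocount of 1 TPM (0.71). Bounds given as "at least" pool the reads of a group and cover counting error only (95%), not differences between mice. Ddx43, a helicase of the testis, was at 0, 0.0421, 0.138, 0.0708 and 0.0997 TPM in N and at 0.768, 1.09, 2.42, 1.42 and 2.62 in E (3.30, adjusted p = 6.03e-05). That none of these genes overlapped between the groups is given by the choice and is no result. The strand setting of the counts is not stated, so reads of overlapping neighbours cannot be told apart.

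Interferon-stimulated genes differed widely between mice of the same group. Of 43 tested, 3 were DEGs higher in E, among them Ifi27l2a and Irf9, 42 had a positive log2 fold change, and the median was 2.01. At an unadjusted p below 0.05 there were 35. The count depended on single mice: it was 0 without E mouse 2, E mouse 3 or N mouse 3, 1 without E mouse 5 or N mouse 2, 4 or 5, 9 without N mouse 1, and 16 without E mouse 4. Without N mice 2 and 3 together it was 0, with a median of 1.64. It was also 0 with a replicate block, with the 3 N mice of genotype Krt14-CreERT/LSL-rtTA alone and with only the E and N mice in the fit, 1 after quantile normalization, 2 after median-of-ratios scaling, and 20 at an adjusted p below 0.05. Summed over the list, RNA stood at 1419, 462, 626, 795 and 536 TPM in N mice 1 to 5 and at 1374, 4719, 4218, 1178 and 5979 in E mice 1 to 5, led by Ifi27l2a. E mice 2, 3 and 5 were above every N mouse, and E mice 1 and 4 were inside the N range. The summed immune markers too were highest in N mouse 1 (770.3 TPM) and E mouse 5 (557) and lowest of E in mouse 4 (57.1), while E mouse 1 (349) was above E mice 2 (211) and 3 (247). Interferon-stimulated RNA of immune cells and of epithelial cells cannot be told apart.

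Isg15, the ubiquitin-like modifier, stood at 156, 18.4, 54.4, 172 and 45.9 TPM in N mice 1 to 5 and at 154, 1129, 773, 109 and 1365 in E mice 1 to 5 (log2 fold change 2.80, adjusted p = 0.0481, not a DEG). Ifit1, a sensor of viral RNA caps, stood at 17.6, 1.67, 5.25, 9.80 and 2.85 TPM in N and at 6.53, 84.1, 44.7, 4.02 and 94.5 in E (2.19, adjusted p = 0.234, not a DEG). In both, E mice 1 and 4 lay inside the N range. Irf9, a transcription factor of the interferon response, stood at 65.2, 29.0, 35.5, 51.2 and 37.1 TPM in N and at 75.3, 134, 126, 79.8 and 138 in E (1.35, adjusted p = 0.00777). Its E mice were all above its N mice, by little in E mouse 1. Without E mouse 2, 3 or 5 or N mouse 2, 3, 4 or 5, Irf9 had an adjusted p of 0.0127 to 0.0278. Ifi27l2a, a small protein of the mitochondrial or nuclear membrane, stood at 265, 79.0, 118, 100.1 and 48.4 TPM in N and at 296, 1237, 1600.0, 353 and 1782 in E (2.98, adjusted p = 0.00558). Without E mouse 2, 3 or 5 or N mouse 2, 3, 4 or 5 its adjusted p was 0.0125 to 0.0213, and its reads may be shared with its close relatives.

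The study's single-cell experiment, on other mice, gave markers of a cell cluster enriched in E epithelium, and the first 100 of these with a positive value, a cut made here, were tested. They were selected in E epithelium of the same study. In the bulk data 5 were DEGs higher in E, beside 1.24% of all genes tested. A positive log2 fold change was found in 80, beside 58.4% of all genes tested, and the median was 0.72. The count was 0 without E mouse 2, E mouse 3 or N mouse 3, 1 without E mouse 5 or N mouse 2 or 5, 3 without N mouse 4, 10 without N mouse 1, 17 without E mouse 4, and 0 without N mice 2 and 3 together. It was 2 after median-of-ratios scaling, 1 after quantile normalization, and 0 with a replicate block, with the 3 N mice of genotype Krt14-CreERT/LSL-rtTA alone and with only the E and N mice in the fit. Among the DEGs were Irf9 and Ifi27l2a, already given, and Apol9a and Apol9b, apolipoprotein L genes induced by interferon. Irf9 and Ifi27l2a are in the interferon list as well, so these counts are not separate from those of that list. Apol9a stood at 8.07, 0.399, 2.00, 6.50 and 1.89 TPM in N mice 1 to 5 and at 12.3, 57.6, 58.7, 9.37 and 80.2 in E mice 1 to 5 (log2 fold change 3.62, adjusted p = 0.00725). Apol9b had means of 4.00 and 37.2 TPM (3.19, adjusted p = 0.00757). The 2 genes are near-identical, so their separate levels are uncertain. Neither was called without E mouse 2, 3 or 5 or N mouse 2, 3 or 5, with an adjusted p of 0.0155 to 0.0264 for Apol9a and 0.0219 to 0.0278 for Apol9b. Neither was called after median-of-ratios scaling, after quantile normalization, by voom, with a replicate block or with only the E and N mice in the fit.

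**Figure D2:**
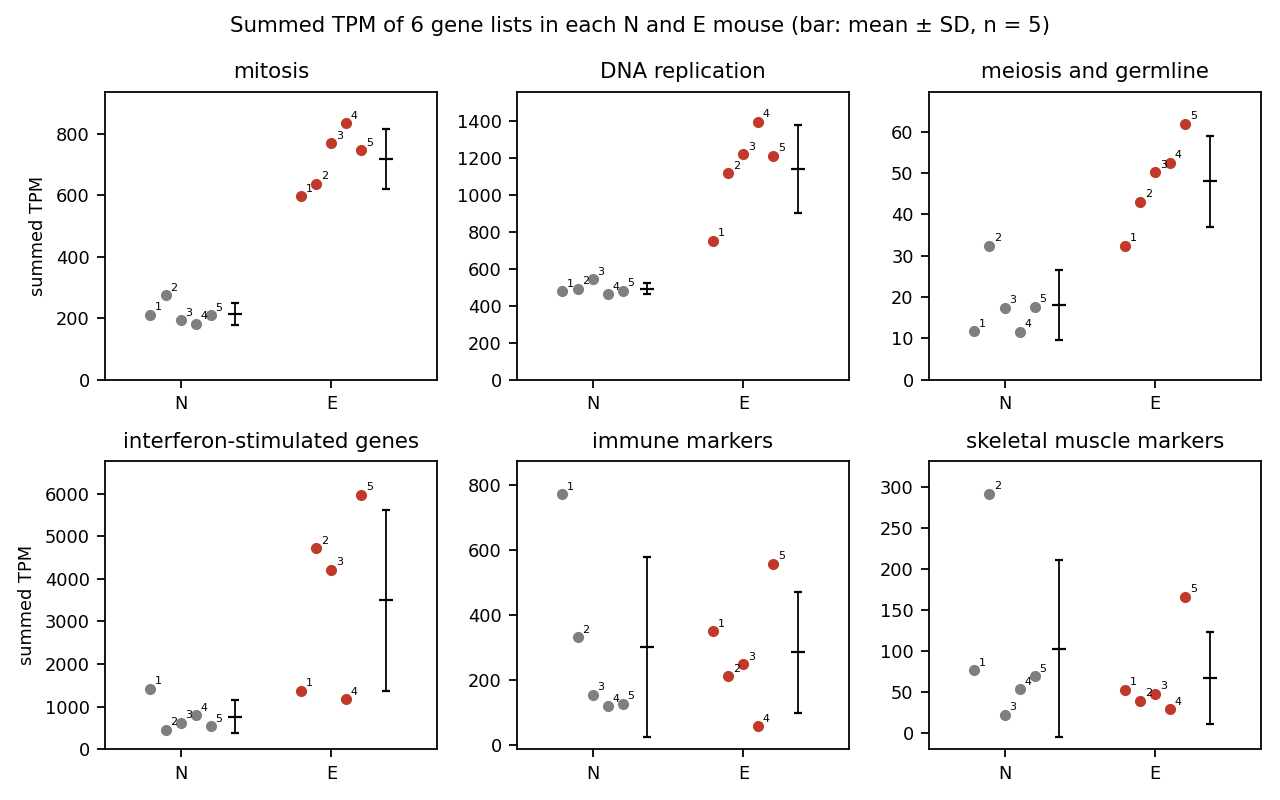
Summed TPM of 6 gene lists in each of the 5 N and 5 E mice, with the mouse number beside each point and a bar for the mean ± SD (n = 5 per group). Mitosis runs from 181 to 275 TPM in N and from 597 to 835 in E, whereas interferon-stimulated genes, immune markers and muscle markers overlap between the groups.

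Among the basal and differentiation lists there was 1 DEG. Of 18 basal progenitor genes none was a DEG by limma or by voom, 2 were at an unadjusted p below 0.05, and the median log2 fold change was 0.11 (-0.01 after median-of-ratios scaling). Krt14, the basal keratin whose promoter drives the recombinase, stood at 8724, 6536, 4658, 5279 and 5043 TPM in N mice 1 to 5 and at 6796, 10595, 7353, 8285 and 5917 in E mice 1 to 5 (log2 fold change 0.38, adjusted p = 0.604). Krt5, its partner, had means of 3061 and 3073 TPM (-0.01, adjusted p = 0.995, with the sign turned to 0.06 by quantile normalization). Krt15, a keratin of basal progenitors, stood at 1928, 1934, 1721, 1919 and 1796 TPM in N and at 1948, 1234, 1204, 2968 and 877 in E (-0.31, adjusted p = 0.73). The E mice of Krt15 spread to both sides of the N mice. Of the basal transcription factors, Trp63 had means of 7.68 and 7.53 TPM (-0.02, adjusted p = 0.974). Sox2 had means of 128 and 127 TPM (-0.00, adjusted p = 0.997), and leaving out N mice 2 and 3 turned the sign of both (0.10 and 0.13). Itga6, the integrin of hemidesmosomes, had means of 11.6 and 12.7 TPM (0.10, adjusted p = 0.898, with the sign turned to -0.01 by median-of-ratios scaling).

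Of 20 keratins of differentiating and papillary epithelium none was a DEG by limma or by voom, 2 were at an unadjusted p below 0.05, and the log2 fold changes ran from -1.67 to 0.60 with a median of 0.13, which was 0.02 after median-of-ratios scaling and 0.00 without N mice 2 and 3. Krt13 had means of 71112 and 64482 TPM in N and E (log2 fold change -0.15, adjusted p = 0.869) and Krt4, its pair, 28549.7 and 22304 TPM (-0.33, adjusted p = 0.675), with the signs turned to 0.19 and 0.06 by quantile normalization. Among 47 genes of the cornified envelope 1 was a DEG, with log2 fold changes from -0.94 to 2.72, a median of 0.26 (0.14 after median-of-ratios scaling and 0.04 without N mice 2 and 3), 37 values above 0 and 6 at an unadjusted p below 0.05. It was Casp14, the caspase of cornification, at 11.9, 10.5, 12.6, 17.4 and 13.6 TPM in N mice 1 to 5 and at 19.6, 27.1, 38.4, 34.8 and 32.7 in E mice 1 to 5 (1.19, adjusted p = 0.00172). Every E mouse of Casp14 was above every N mouse, but it was not called after median-of-ratios scaling, with only the E and N mice in the fit, or without N mice 2 and 3 (1.07, adjusted p = 0.0201, the highest of the alternatives, with 3.12e-04 the lowest). Ivl, involucrin, had means of 23.1 and 18.3 TPM (-0.30, adjusted p = 0.8), with the sign turned to 0.11 with the 3 N mice of genotype Krt14-CreERT/LSL-rtTA alone. Lor, loricrin, had means of 5749.8 and 6749.8 TPM (0.14, adjusted p = 0.928), with the sign turned to -0.08 by the same choice.

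Targets of YAP and TEAD had no DEG among 21 tested by limma and none by voom, 2 at an unadjusted p below 0.05, and a median log2 fold change of -0.18, which was -0.01 without N mice 2 and 3. Ccn1, a matricellular protein, stood at 80.8, 98.5, 114, 128 and 117 TPM in N mice 1 to 5 and at 121, 63.6, 44.3, 134 and 150.0 in E mice 1 to 5 (log2 fold change -0.20, adjusted p = 0.824, with the sign turned to 0.07 without E mouse 3). Ccn2, its relative, had means of 6.56 and 2.45 TPM (-0.90, adjusted p = 0.485). Axl, a receptor kinase, had means of 6.12 and 7.22 TPM (0.36, adjusted p = 0.556), with the sign turned to -0.13 with the 3 N mice of genotype Krt14-CreERT/LSL-rtTA alone. Amotl2, a feedback inhibitor of YAP, had means of 15.8 and 14 TPM (-0.18, adjusted p = 0.681), with the sign turned to 0.01 without N mice 2 and 3. Yap1 had means of 8.34 and 9.36 TPM (0.17, adjusted p = 0.566). The groups overlapped in all 5 genes. Cytokines, chemokines and alarmins had no DEG among 24 tested by limma and none by voom, 3 at an unadjusted p below 0.05 and a median of 0.21 (0.12 after median-of-ratios scaling).

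**Figure D3:**
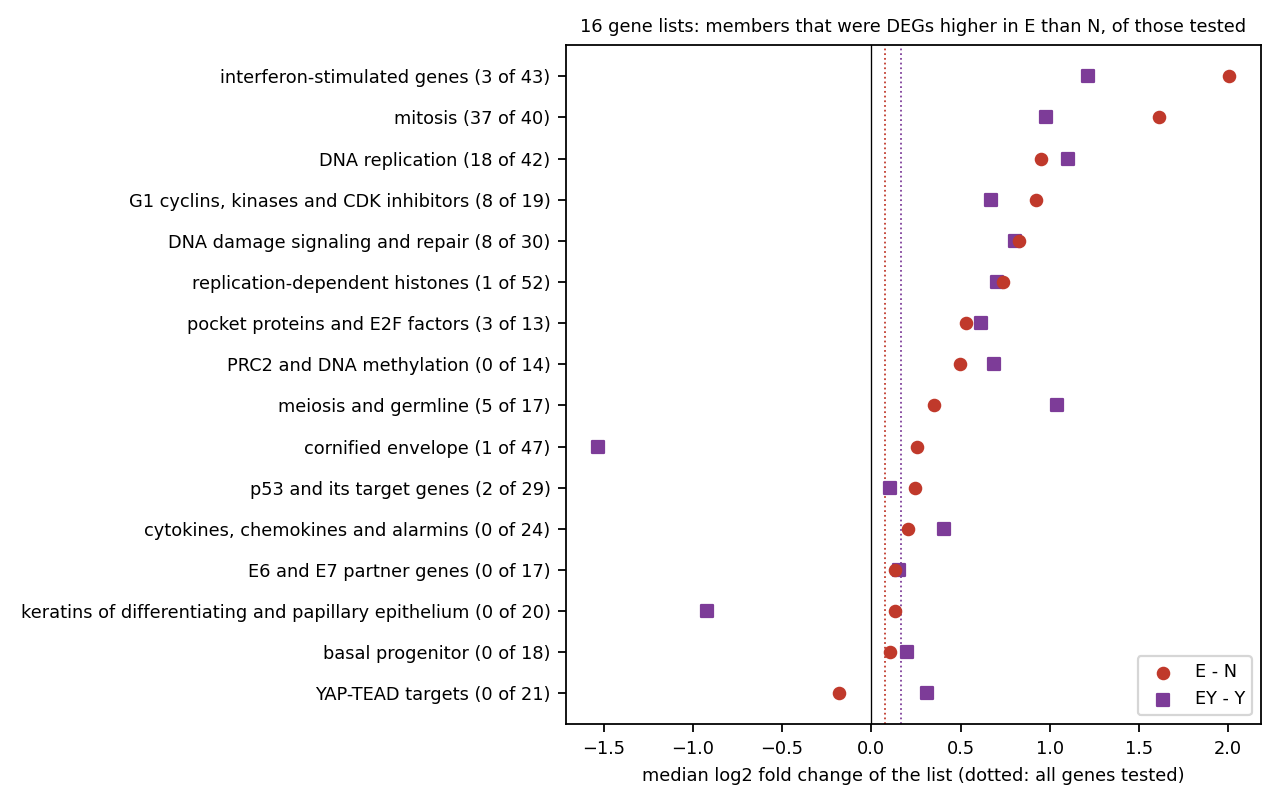
Median log2 fold change of the 16 pathway lists for E against N (red circles) and for EY against Y (purple squares), with the number of DEGs of those tested in brackets and dotted lines at the medians of all genes tested (0.07 and 0.16). Mitosis is at 1.61 and 0.98, and the cornified envelope at 0.26 and -1.53.

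Outside all lists, the largest increases included genes of different tissues. Nes, the intermediate filament of neural progenitors, stood at 0.729, 0.438, 0.751, 0.0525 and 0.237 TPM in N mice 1 to 5 and at 4.38, 7.60, 9.71, 3.50 and 6.69 in E mice 1 to 5 (log2 fold change 3.74, adjusted p = 1.99e-05). Rpp25, a subunit of ribonuclease P, stood at 3.61, 1.24, 2.7, 1.04 and 0.780 TPM in N and at 11.2, 22.3, 16.2, 23.0 and 17.6 in E (3.38, adjusted p = 1.21e-05). Cilp2, of cartilage matrix, stood at 0, 0.0801, 0.262, 0 and 0.152 TPM in N and at 1.42, 3.10, 4.24, 1.46 and 3.86 in E (3.92, adjusted p = 4.28e-05). All 3 were without overlap, which the rule for naming them required. Pilra, an inhibitory receptor of myeloid cells whose gene adjoins Zcwpw1, stood at 2.23, 0.450, 0.223, 0.378 and 0.0387 TPM in N and at 4.82, 6.24, 8.19, 6.86 and 9.50 in E (3.85, adjusted p = 4.10e-04) and was not called with only the E and N mice in the fit. Reads of Pilra and Zcwpw1 that run from one gene into the other cannot be told apart. The antibody segment Ighv1-62 was at 0 in all N mice and at 1.23, 7.25, 7.38, 5.98 and 5.61 TPM in E (5.58, adjusted p = 0.00215), at least 7.04-fold on 0 and 19 reads. It was not called by voom, with the 3 N mice of genotype Krt14-CreERT/LSL-rtTA alone, with a pseudocount of 1 TPM or without N mice 2 and 3 (adjusted p = 0.0161, in a range of 7.95e-05 to 0.0235 over the alternatives), and its reads may belong to related segments. The noncoding 4930542C12Rik was at 0.532 TPM in N mouse 3 and 0 in the other N mice, and at 0.911, 4.85, 10.4, 1.67 and 9.91 TPM in E (4.76, adjusted p = 5.81e-04), a ratio of 57.8 on 1 and 52 reads with a counting interval of 9.92 to 2325 (exact, 95%, counting error only). It was not called with only the E and N mice in the fit or with the 3 N mice of genotype Krt14-CreERT/LSL-rtTA alone.

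Of the DEGs lower in E, the 10 largest are named. The median log2 fold change of the 11 was -3.00, and -2.35 with the genes at 0 reads in E set to their bound. Leaving out 1 mouse gave from 3 to 15 such DEGs, and 7 of the 11 had at most 21 reads over the N group. Olfr998, an olfactory receptor, stood at 0.387, 0.995, 0.217, 0.334 and 1.32 TPM in N mice 1 to 5 and at 0 in all E mice (log2 fold change -2.67, adjusted p = 5.18e-05), at least 5.10-fold lower on 17 and 0 reads. Myoc, a secreted glycoprotein of muscle and connective tissue, stood at 0.649, 0.723, 1.76, 1.82 and 1.21 TPM in N and at 0, 0, 0.125, 0.444 and 0.0595 in E (-2.77, adjusted p = 0.00174). Both fell without overlap and were called without each mouse in turn, but neither was called with only the E and N mice in the fit or with a pseudocount of 1 TPM, and Myoc was not called without N mice 2 and 3. Of the abundant genes, Cyp2a5, a cytochrome P450, stood at 37.5, 36.0, 162, 53.7 and 56.6 TPM in N and at 2.92, 10.2, 5.20, 19.9 and 6.16 in E (-3.00, adjusted p = 0.0045). Without E mouse 1, 3 or 5 or N mouse 3, 4 or 5 its adjusted p was 0.0110 to 0.0164, and its reads may be shared with close relatives. Ces1d, a carboxylesterase of lipid metabolism, stood at 3.10, 8.43, 22.0, 12.5 and 9.22 TPM in N and at 1.86, 0.510, 1.56, 2.21 and 0.868 in E (-2.79, adjusted p = 0.00737). Its adjusted p was 0.0153 to 0.0256 without E mouse 2, 3 or 5 or N mouse 2, 3, 4 or 5. Neither of these was called with only the E and N mice in the fit or without N mice 2 and 3 together. A further 6 are predicted genes or pseudogenes with 8 to 21 N reads. Their "at least" bounds, and that of Olfr998, cover counting error only. Gm10146, at 0 in E, was at least 3.90-fold lower (adjusted p 0.0157 to 0.0287 without any mouse but N mouse 5). Gm44386, at 0 in E, was at least 6.30-fold lower (0.0115 to 0.0210 without any mouse but N mouse 2). Gm4950, at 0 in E, was at least 3.60-fold lower (0.0115 to 0.0151 without E mouse 2, 3, 4 or 5 or N mouse 1, 4 or 5). Gm52977, at 0 in E, was at least 2.40-fold lower (0.0111 to 0.0155 without any mouse but E mouse 1 or N mouse 1). With 1 E read, Gm12100 had a ratio of N to E of 9.90, counting interval 1.44 to 426 (adjusted p 0.0145 to 0.0239 without E mouse 1, 2, 4 or 5 or N mouse 1, 3 or 4). Gm5278, also with 1 E read, had a ratio of 13.5, counting interval 2.08 to 568 (0.0115 to 0.0317 without any mouse but E mouse 4). Reads of such genes may come from near-identical copies.

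The same transgene was compared on a YAP1S127A background, in 6 EY mice against 3 Y mice. These share no sample with E and N. Both comparisons use the same estimate of the spread per gene, so their calls are not independent. There were 240 DEGs higher and 220 lower in EY than in Y. Leaving out Y mouse 1, 2 or 3 gave 194, 247 or 268 DEGs in total, and only the EY and Y mice in the fit gave 201. Xist was above 100 TPM in 2 of the 3 Y mice and 1 of the 6 EY mice, so this comparison is unbalanced in sex-linked RNA as well, and it was not repeated without them. Of the 265 DEGs higher in E, 258 (97.4%) had a positive log2 fold change of EY against Y, beside 62.5% of all genes tested, and 130 were DEGs higher in EY, which is 49.1% of the 265 and 54.2% of the 240. The size of the change in these genes is not compared between the backgrounds, since they were chosen by a high value in E against N. Of the 11 DEGs lower in E, 2 had a negative log2 fold change of EY against Y and none was a DEG lower in EY.

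**Figure D4:**
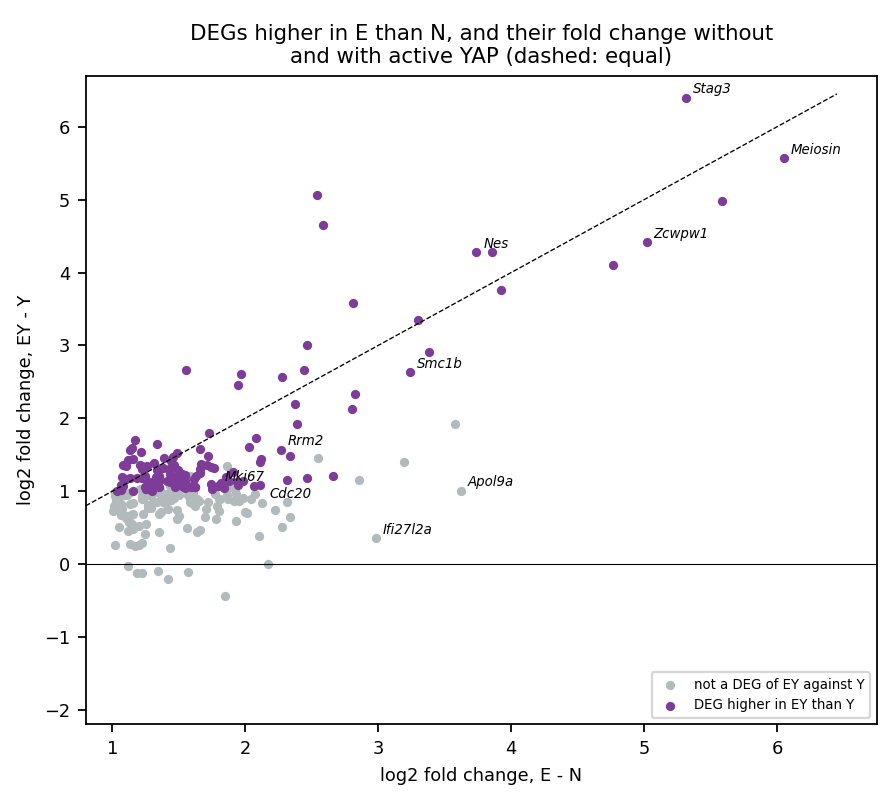
Log2 fold change of E against N (horizontal) and of EY against Y (vertical) for the 265 DEGs higher in E, purple where the gene was also a DEG higher in EY (130) and grey where not, with a dashed line at equal values. In 258 of the 265 the vertical value is above 0.

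Mitotic genes are set side by side on both backgrounds. The mitosis list had 17 DEGs of 40 and a median log2 fold change of 0.98 in EY against Y, beside 37 and 1.61 in E against N, and a median interaction of -0.67, with 1 of the 40 passing the interaction thresholds. The counts come from groups of different size (6 and 3, and 5 and 5). Median levels of the list on the log2 scale ran from 1.61 to 1.96 in N, from 3.01 to 3.58 in E, from 3.44 to 3.58 in Y and from 4.44 to 4.63 in EY. The interaction was tested for every gene: 40 passed both thresholds, 38 of them below 0, with 28 to 72 when 1 mouse was left out and 115 by voom. Cdc20 (-1.29, adjusted p = 0.00754) and Kifc1 (-1.78, adjusted p = 0.00159) were among the 40. They are named because they were also DEGs higher in E, a choice that favours an interaction below 0, so the size of either value is not read further. Cdc20 ran from 76.8 to 107 TPM in Y and from 142 to 220.0 in EY (log2 fold change 0.84), and Kifc1 from 6.05 to 8.51 in Y and from 8.64 to 15 in EY (0.50). The interaction of Mki67 was -0.72 (adjusted p = 0.146) and that of Ccne1 -0.86 (adjusted p = 0.254).

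Other lists were counted in the same way, beside 1.12% higher and 1.03% lower in EY than in Y over all genes tested. DNA replication had 25 DEGs of 42 in EY against Y (median 1.10, beside 0.95), repair 8 of 30 (0.81, beside 0.83) and meiosis and germline 5 of 17 (1.04, beside 0.35). The genes called were not all the same: Polq was at 1.05 (adjusted p = 0.00848) and Neil3 at 0.71 (adjusted p = 0.065, not a DEG). In EY against Y, Stag3 had a log2 fold change of 6.40 (adjusted p = 6.45e-09). For Meiosin it was 5.57 (adjusted p = 6.48e-07), for Zcwpw1 4.42 (adjusted p = 6.48e-07) and for Tdrd1 4.65 (adjusted p = 3.15e-05). Ddx43 was at 3.35 and a DEG, whereas Rbm46 was at 1.16 and not a DEG. Pocket proteins and E2F factors had 1 DEG of 13 (0.62), G1 genes 6 of 19 (0.67) and the interferon-stimulated genes 0 of 43 (1.22, interaction median -0.80). The p53 list had 2 DEGs of 29 lower in EY than in Y and none higher (0.11), beside 2 higher and none lower in E against N. Cytokines, chemokines and alarmins had 2 lower of 24 and none higher (0.41). The cornified envelope had 20 DEGs of 47 lower in EY than in Y and a median of -1.53, with 13 genes passing the interaction. The keratins had 7 lower of 20 and a median of -0.92. Loricrin is an example: Lor was at -2.77 in EY against Y (adjusted p = 0.00186), beside 0.14 in E against N.

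**Figure D5:**
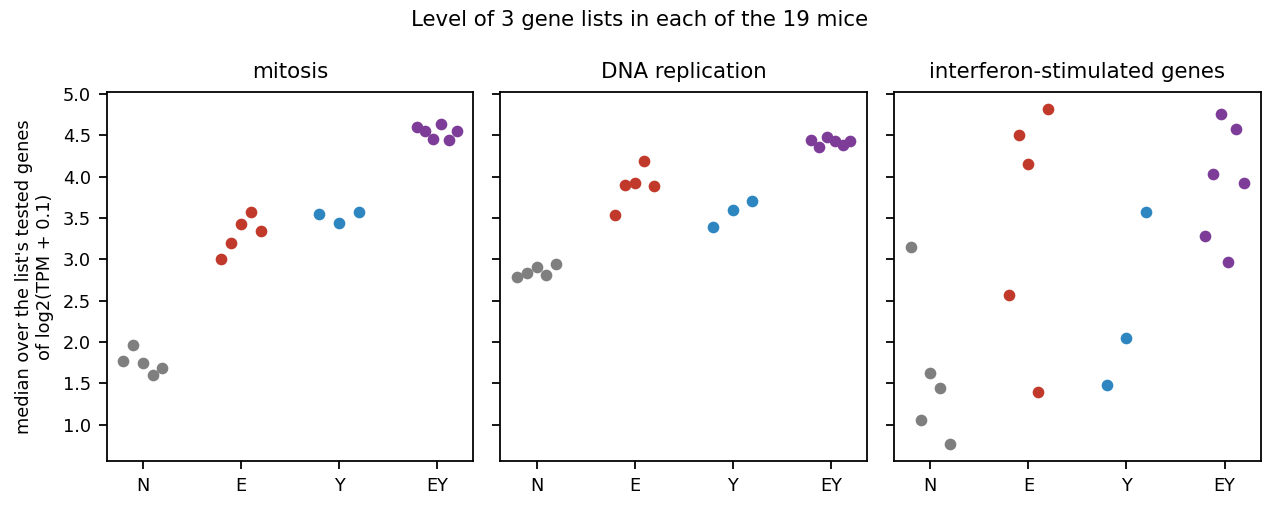
Median log2(TPM + 0.1) of the mitosis, DNA replication and interferon-stimulated gene lists in each of the 19 mice, by group. Mitosis runs from 1.61 to 1.96 in N and from 3.01 to 3.58 in E, and interferon-stimulated genes from 0.76 to 3.15 in N and from 1.39 to 4.82 in E.

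The E mice were compared with the Y mice directly, to see where the 2 single transgenes differ. There were 187 DEGs higher and 359 lower in E than in Y, which is 0.874% and 1.68% of the genes tested. The total of 546 became 322 without Y mouse 2, 261 without Y mouse 3 and 181 with only the E and Y mice in the fit. Xist was above 100 TPM in 2 of the 3 Y mice and in none of the 5 E mice. Of 40 tested, mitosis had no DEG higher and 1 lower (median log2 fold change -0.22), and that gene was Mybl2 (-1.09, adjusted p = 0.00669). The cornified envelope had the most calls of any list, 11 higher and 4 lower in E of 47 tested (0.70). Of 20 keratins, 3 were higher and 2 lower (0.45). DNA replication had 1 DEG higher of 42 (0.32). The single calls of mitosis and DNA replication are not read as a difference between the transgenes. Meiosis and germline had 4 DEGs higher of 17 (1.04), with Stag3 at 5.86 (adjusted p = 4.54e-08) and Smc1b at 3.23 (adjusted p = 5.40e-05). The p53 list had 3 DEGs of 29 lower in E than in Y (-0.34), among them Pmaip1 (-2.66, adjusted p = 1.58e-05) and Ccng1 (-1.26, adjusted p = 7.87e-04). YAP and TEAD targets had 5 lower of 21 (-0.90), among them Ccn1 (-1.86, adjusted p = 0.00182), Axl (-1.48, adjusted p = 0.00339) and Amotl2 (-1.93, adjusted p = 1.33e-05). Cytokines, chemokines and alarmins had 5 lower of 24 (-1.17). Ccnd1 was lower in E than in Y as well (-1.46, adjusted p = 0.00107).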

How the data were processed

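RNA of tongue epithelium from 19 mice (5 N, 5 E, 3 Y, 6 EY; 8 to 16 weeks old, day 15) was sequenced. The authors aligned reads with STAR 2.7.9 to GRCm39, counted them with HTSeq 0.13.5 and tested them with DESeq2 1.34.0. The deposited values are TPM per gene and mouse (sum 1000000), from 8269674 to 11007304 reads per mouse. All 24680 genes above 0 had values that are whole multiples of 1 step (tolerance 0.01 reads), which gave back the reads. Genes with at least 0.1 TPM in 3 or more E and N mice were fitted on log2(TPM + 0.1) with limma 3.58.1 in R 4.3.3 (lmFit, eBayes with trend, 1 mean per group), with Benjamini-Hochberg adjusted p. This scale can understate the change of low genes, and can overstate it where 1 read is worth more than 0.1 TPM. Contrasts were E - N, EY - Y, E - Y and their interaction. The fit and the recovery of reads were tested on simulated data, in which 165 of 200 changed genes were found with 1 false call. The changed genes were all well above 0 reads and had the same fold change, as many up as down. Simulated Y and EY mice did not differ from N. The data differ in these points, so that 1 false call is no error rate for the calls made here. Other steps used Python 3.11.15, numpy 2.4.6, pandas 2.3.3, scipy 1.17.1 and matplotlib 3.10.9.

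Lists are described by counts and medians, with no p over a list. Members and lists were chosen with earlier results of these data known. Genes are named if they are among the 15 largest increases without overlap or the 10 largest decreases, belong to a fixed set of pathway genes, have 1 of the 4 smallest adjusted p of a list, or pass the interaction; some genes that meet this rule are not reported here. Alternatives were other pseudocounts, filters, scalings, thresholds and samples, voom, a replicate block and leaving out mice. Strand setting and the conversion of counts to TPM are not stated. The reference tables are on GRCm38.p6 and were joined by gene name.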

Additional observations from a re-analysis of the deposited data

Results flagged for a closer look

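Among 286 groups of 5 mice looked at for 1 mouse far from the other 4 (gap share above 0.71), 25 had one. In 5 of these that mouse is the only one above 0, so its gap share is 1 by construction and is no test. Of the 273 groups with at least 2 mice above 0, 20 (7.33%) had one, where chance gives about 1 in 20. All values are TPM.

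Ighv1-62 was lowest in E mouse 1, at 1.23, with the other 4 from 5.61 to 7.38. In N mouse 3, 4930542C12Rik was at 0.532, the highest of its group, with the others at 0. For Pilra, N mouse 1 had the highest value, 2.23, and the other 4 were from 0.0387 to 0.450. H2bc22 was highest in N mouse 4, at 0.281, with the other 4 at 0. In N mouse 5, Smc1b was at 0.0495, the highest of its group, with the others from 0 to 0.00951. For Gm5278, E mouse 4 had the highest value, 1.21, and the other 4 were at 0. Cyp2a5 was highest in N mouse 3, at 162, with the other 4 from 36.0 to 56.6. In E mouse 4, Myoc was at 0.444, the highest of its group, with the others from 0 to 0.125. For Gm12100, E mouse 3 had the highest value, 0.124, and the other 4 were at 0. Ccne2 was lowest in E mouse 1, at 12.7, with the other 4 from 29.8 to 36.0. In N mouse 1, Cdkn2a was at 0.169, the highest of its group, with the others from 0 to 0.0317. For Trp53, E mouse 5 had the lowest value, 18.5, and the other 4 were from 23.9 to 25.9. Mdm2 was highest in N mouse 2, at 21.4, with the other 4 from 16 to 17.3. In E mouse 1, Mdm2 was at 16.3, the lowest of its group, with the others from 22.1 to 22.6. For Hells, E mouse 1 had the lowest value, 5.91, and the other 4 were from 9.41 to 10.6. Pmaip1 was highest in N mouse 1, at 6.00, with the other 4 from 2.87 to 3.58. In N mouse 1, Iho1 was at 0.0229, the highest of its group, with the others at 0. For Mrpl4, E mouse 4 had the highest value, 261, and the other 4 were from 133 to 139. Sycp3 was lowest in N mouse 1, at 0.334, with the other 4 from 0.852 to 0.983. In N mouse 2, Spo11 was at 1.18, the highest of its group, with the others from 0.323 to 0.372. For Rec8, N mouse 2 had the highest value, 14.9, and the other 4 were from 0.929 to 3.99. The summed list of G1 cyclins, kinases and CDK inhibitors was highest in E mouse 4, at 1186, with the other 4 from 906 to 971. In N mouse 2, the summed list of meiosis and germline was at 32.4, the highest of its group, with the others from 11.6 to 17.6. For the summed list of skeletal muscle markers, N mouse 2 had the highest value, 292, and the other 4 were from 22.4 to 76.3. The summed list of skeletal muscle markers was highest in E mouse 5, at 166, with the other 4 from 28.8 to 52.5. Cdc20 had an interaction of -1.29 on the log2 scale, which passed both thresholds over all genes tested. The interaction of Kifc1 was -1.78 and passed as well. Both were named because they were DEGs higher in E, a choice that favours an interaction below 0.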

How the results depend on the processing

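Counts depend on the fit more than directions do. The 276 DEGs of E against N (265 higher, 11 lower) became 150 (144 and 6) with only the groups compared in the fit and 422 at an adjusted p below 0.05. Leaving out 1 mouse gave 223 to 331 in total, 218 to 317 higher and 3 to 15 lower. Voom gave 264, median-of-ratios scaling 236, quantile normalization 245, and the 3 N mice of genotype Krt14-CreERT/LSL-rtTA alone 191. Leaving out the N mice with Xist above 100 TPM, chosen after seeing the data, gave 252, and the cause of their difference was not tested. The 11 lower became 6 with a filter at 1 TPM, 5 with the 3 N mice, 5 with a pseudocount of 1 TPM, 7 without the N mice with high Xist, and 45 at an adjusted p below 0.05.

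With mouse number as a replicate block there were 231 DEGs (224 higher, 7 lower). Correlations of E and N mice of the same number were 0.073, -0.0093, 0.0159, 0.0832 and -0.0034, so the numbers do not pair.

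The 460 DEGs of EY against Y became 201 with only the groups compared, 833 at an adjusted p below 0.05, 834 with no limit on the fold change, and 194 to 484 with 1 mouse left out. The 40 of the interaction became 115 by voom, 143 at an adjusted p below 0.05, and 28 to 72 with 1 mouse left out. The 546 of E against Y became 181, 985 and 985 in the first 3 of these settings, and 261 to 519 with 1 mouse left out. The 86 list DEGs became 57 with only the groups compared and 77 to 104 with 1 mouse left out.

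Over 116 genes and all settings, 2468 of 2772 values kept their call and direction, 242 were weaker, 24 stronger and 38 reversed. Rbl2 was at -0.00578 after median-of-ratios scaling and -0.00117 after quantile normalization. Trp53 was at -0.0696 with the 3 N mice and -0.0046 after quantile normalization. Krt5 was at 0.059 after quantile normalization, 0.0666 without the N mice with high Xist, and -0.110 to 0.131 with 1 mouse left out. Quantile normalization turned Krt13 to 0.19 and Krt4 to 0.0617. Without the N mice with high Xist, Trp63 was at 0.0973, Sox2 at 0.127 and Amotl2 at 0.00562. With 1 mouse left out, Trp63 ran from -0.147 to 0.0837 and Sox2 from -0.115 to 0.0633. Itga6 was at -0.0149 after median-of-ratios scaling, -0.0549 with the 3 N mice, -0.0406 after quantile normalization, and -0.0466 to 0.212 with 1 mouse left out. With the 3 N mice Ivl was at 0.11, Lor at -0.0813 and Axl at -0.13. Spo11 was at 0.0116 without the N mice with high Xist and -0.583 to 0.0321 with 1 mouse left out. With 1 mouse left out, Lor ran from -0.0794 to 0.330 and Ccn1 from -0.370 to 0.0688.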

Other observations

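Some DEGs higher in E outside the naming rule were chosen after their values were seen. Mrpl4, of the mitochondrial ribosome, stood at 31.5, 27.8, 29.0, 29.7 and 29.5 TPM in N mice 1 to 5 and at 139, 135, 136, 261 and 133 in E mice 1 to 5 (log2 fold change 2.39, adjusted p = 1.28e-06; 1.92 in EY against Y). Every E mouse was above every N mouse. Icam1, an adhesion molecule whose gene adjoins Mrpl4, stood at 22.5, 14.3, 8.87, 6.52 and 7.61 TPM in N and at 42.5, 47.8, 23.2, 85.7 and 30.8 in E (1.94, adjusted p = 0.00568). It was not called without E mouse 1, 2 or 4 or N mouse 3, 4 or 5 (adjusted p 0.0111 to 0.0209), and reads that run between the 2 genes cannot be told apart. Both were highest in E mouse 4.

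Iho1, a protein of meiotic double-strand breaks, was at 0.0229, 0, 0, 0 and 0 TPM in N and at 0.484, 0.755, 0.981, 0.699 and 0.378 in E (2.81, adjusted p = 2.55e-06), a ratio of 143 on 1 and 129 reads with a counting interval of 25.3 to 5704 (exact, 95%, counting error only). Ulbp1, a ligand of the NKG2D receptor, stood at 0.634, 0.828, 0.346, 0.503 and 0.567 TPM in N and at 3.24, 2.96, 4.04, 4.82 and 2.69 in E (2.44, adjusted p = 4.21e-06). Neither overlapped between the groups. Mlkl, the effector of necroptosis, had means of 0.488 and 3.50 TPM (2.80, adjusted p = 4.72e-04). Asf1b, a histone chaperone, rose from 1.68 ± 0.542 to 11 ± 3.05 TPM (2.66, adjusted p = 3.44e-06). H2az1, a histone variant gene, rose from 225 ± 28.8 to 498 ± 74.3 TPM (1.14, adjusted p = 2.18e-05; 0.93 after quantile normalization, not a DEG). Stmn1, a microtubule destabilizer, rose from 40.8 ± 8.51 to 97.2 ± 22.3 TPM (1.25, adjusted p = 4.97e-04).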
